A study of Homo sapiens with 2 samples.

Results

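The miR-193 and miR-365 hairpins are 4 related microRNA (miRNA) precursors, mir-193a, mir-193b, mir-365a and mir-365b. They lie as a mir-193 and mir-365 pair on chromosome 16 and again on chromosome 17. Members were every row of the deposited table filed under these precursors, both arms included, which gave 8 mature names of 1497 in all. They are listed as hsa-miR-193a-3p, hsa-miR-193a-5p, hsa-miR-193b-3p, hsa-miR-193b-5p, hsa-miR-365a-3p, hsa-miR-365a-5p, hsa-miR-365b-3p and hsa-miR-365b-5p, and the species prefix is left out from here on. The hairpins were chosen by measured values of this table, namely level, arm ratio and the difference between the libraries, so these are given as descriptions and without a test.

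The table came from small RNA sequencing of A375 cells, an established human melanoma line, in a study of miRNAs that act on the BRAF-X1 mRNA. The cells were grown for 24 h and then kept for 48 h in DMSO, the solvent that serves as vehicle for drugs. This single group held 2 libraries, named replicates 1 and 2, so no condition was compared. The labels do not say whether the replicates came from separate cultures. Of 7 miRNAs linked to melanoma, 6 stood at 10 RPM or more in both libraries, while miR-211-5p, made in an intron of a melanocyte gene, had 3 and 2 reads. RPM here means reads per 1000000 read assignments, and the libraries held 10816826 and 15428446 of them, so 1 read was worth 0.0924 and 0.0648 RPM.

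A miRNA hairpin is cut into a duplex of a 5p and a 3p arm, and as a rule an Argonaute protein keeps one arm as the guide while the other, the passenger, decays. The guide finds messenger RNAs mainly through its seed, bases 2 to 8 from its 5′ end. The miR-193 family is known for restraining growth and survival genes such as MCL1, CCND1 and PLAU. The mir-193b and mir-365a locus is also known from the differentiation of brown fat.

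The mature sequences are shown because they decide which reads can be told apart between paralogues. All 8 names matched RefSeq (GRCh38.p14), and the seed is in capitals.
miR-193a-3p: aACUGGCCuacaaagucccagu
miR-193b-3p: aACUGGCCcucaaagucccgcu
miR-193a-5p: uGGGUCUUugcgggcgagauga
miR-193b-5p: cGGGGUUUugagggcgagauga
miR-365a-3p: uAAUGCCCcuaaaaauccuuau
miR-365b-3p: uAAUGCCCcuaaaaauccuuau
miR-365a-5p: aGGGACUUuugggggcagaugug
miR-365b-5p: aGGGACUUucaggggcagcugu

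The miR-193 3p arms shared the seed ACUGGCC and 18 of 22 bases. Counted from 1 at the 5′ end of miR-193a-3p, they differed by U9C, A10U, A20G and G21C, all outside the seed. The miR-193 5p arms also shared 18 of 22 bases, but here the changes U5G and C6U fell in the seed and U1C and C11A outside it. The 3p arms of this family thus carry 1 seed and the 5p arms carry 2. The miR-365 3p arms were identical over 22 bases, so no read of this arm can be given to 1 locus. The miR-365 5p arms shared a seed and differed by U10C, G11A and A19C within the 22 bases compared. Among the 1317 mature names of the table with a RefSeq sequence, no name outside these hairpins had the seed of a member.

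The hairpins themselves are shown with both mature arms in capitals.
mir-193a: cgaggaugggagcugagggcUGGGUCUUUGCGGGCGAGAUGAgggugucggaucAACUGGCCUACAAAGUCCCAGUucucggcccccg
mir-193b: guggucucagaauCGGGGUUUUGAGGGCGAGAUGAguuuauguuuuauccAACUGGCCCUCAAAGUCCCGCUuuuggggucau
mir-365a: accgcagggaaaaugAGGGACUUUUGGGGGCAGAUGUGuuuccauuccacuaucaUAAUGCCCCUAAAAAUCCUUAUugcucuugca
mir-365b: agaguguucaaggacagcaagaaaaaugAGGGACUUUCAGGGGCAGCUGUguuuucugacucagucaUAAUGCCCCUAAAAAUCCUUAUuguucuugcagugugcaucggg

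In GRCh38, mir-193b (MIR193B) lies at chr16:14303967-14304049 and mir-365a (MIR365A) at chr16:14309285-14309371, both on the plus strand with 5235 bases between them. In GENCODE 29 both lie in introns of all 4 transcripts of the long noncoding gene MIR193BHG that span them. On chromosome 17, mir-193a (MIR193A) lies at chr17:31559996-31560083 and mir-365b (MIR365B) at chr17:31575411-31575521, again on the plus strand, with 15327 bases between them. No gene other than its own overlaps mir-193a in GENCODE 29, and mir-365b lies in the noncoding gene AC003101.1, where its 3′ end reaches into an exon. Another hairpin, mir-4725, lies 52 bases before mir-365b, and its arms had 3 and 3 reads (miR-4725-3p) and 2 and 2 reads (miR-4725-5p). The paralogous hairpins mir-193a and mir-193b were identical in 58 of 92 aligned columns, and mir-365a and mir-365b in 73 of 112.

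The members were expressed at a middling level, led by miR-193b-3p. Of the 8 names, 5 stood at 10 RPM or more in both libraries, beside 335 of 1497 names in the table (22.4%). The median of the 8 means was 89.7 RPM, against 0.588 RPM over all names, a table in which many rows rest on a few reads. With the shared miR-365 3p sequence counted once, the members summed to 577 RPM in replicate 1 and 495 RPM in replicate 2.

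**Figure D1:**
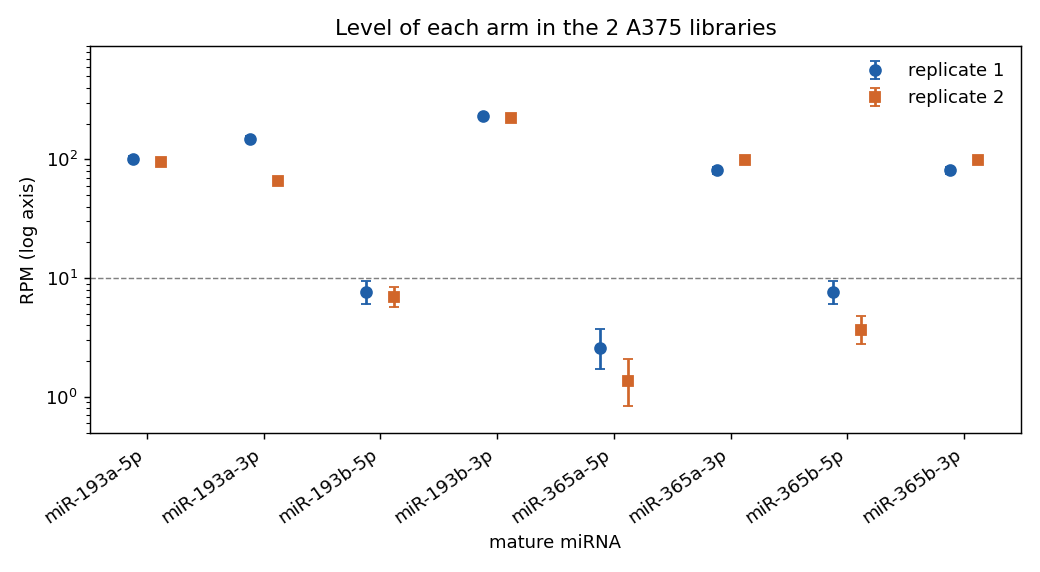
RPM (log axis) of the 8 mature miRNAs in replicate 1 (circles) and replicate 2 (squares), with exact 95% Poisson intervals of the reads and a dashed line at 10 RPM. The marks of miR-193a-3p stand apart at 149 and 65.1 RPM, while those of miR-193b-3p nearly meet at 230.0 and 225 RPM.

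MiR-193b-3p, the best known guide of the family, had 230.0 RPM in replicate 1 (2488 reads) and 225 RPM in replicate 2 (3465 reads), a mean of 227 ± 3.84 RPM (SD, n = 2). It ranked number 117 among all names. Its values in the libraries lay close together.

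MiR-193a-3p, the paralogue with the same seed, had 149 RPM in replicate 1 (1608 reads) and 65.1 RPM in replicate 2 (1004 reads), a mean of 107 ± 59.1 RPM. The exact 95% Poisson intervals, which cover counting error alone, ran from 141 to 156 RPM and from 61.1 to 69.2 RPM and did not meet. Replicate 1 was thus the high library and replicate 2 the low one for this arm.

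MiR-193a-5p, the opposite arm of the same hairpin, had 99.9 RPM (1081 reads) and 94.0 RPM (1451 reads), a mean of 97.0 ± 4.16 RPM. Its 2 intervals, 94.1 to 106 RPM and 89.3 to 99.0 RPM, overlapped. MiR-193b-5p, the passenger arm of mir-193b, was low at 7.58 and 6.94 RPM (82 and 107 reads), a mean of 7.26 ± 0.456 RPM.

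The miR-365 3p sequence, the guide arm of both mir-365 hairpins, had 80.5 RPM in replicate 1 and 98.8 RPM in replicate 2 (871 and 1525 reads), a mean of 89.7 ± 13.0 RPM. The rows of miR-365a-3p and miR-365b-3p held exactly the same values in each library. Of 34 sequences at a mean of 10 RPM or more that the table files under several hairpins, this was the only 1 with identical values in all copies, although in 28 the lowest copy reached 0.9 of the highest. The passenger arms, which do differ between the loci, were low: miR-365b-5p had 7.58 and 3.69 RPM (82 and 57 reads), and miR-365a-5p had 2.59 and 1.36 RPM (28 and 21 reads).

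The order of means was miR-193b-3p, miR-193a-3p, miR-193a-5p, miR-365-3p, miR-193b-5p, miR-365b-5p and miR-365a-5p. The range of mean ± SD of miR-193b-3p met no other. Those of miR-193a-3p, miR-193a-5p and the miR-365 3p arm overlapped, as did those of miR-193b-5p and miR-365b-5p, so these neighbours were not resolved. The highest and the lowest member were 115-fold apart. The total behind these RPM counts a name again for each hairpin it is filed under, and with each name counted once all levels would be 1.29-fold higher in replicate 1 and 1.28-fold higher in replicate 2. RPM of different miRNAs carry the ligation preference of their ends, so levels of different sequences are not exact molar ratios.

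The seed pool of the family, miR-193a-3p and miR-193b-3p together, held 379 RPM in replicate 1 and 290 RPM in replicate 2, a mean of 334 ± 62.9 RPM. MiR-193b-3p made up 60.7% of its reads in replicate 1 (2488 of 4096, exact Clopper-Pearson 95% interval 59.2 to 62.2%) and 77.5% in replicate 2 (3465 of 4469, 76.3 to 78.8%). The paralogue of chromosome 16 was thus the higher in both libraries, 1.55-fold in replicate 1 and 3.45-fold in replicate 2. The size of its lead differed 2-fold or more with the library used.

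Between the 5p arms the order was the opposite. MiR-193a-5p was 13.2-fold above miR-193b-5p in replicate 1 and 13.6-fold in replicate 2, a log2 ratio of miR-193b-5p over miR-193a-5p of -3.57 ± 0.02 with 1 RPM added. The chromosome 17 copy thus led in the 5p arm and the chromosome 16 copy in the 3p arm, in each library.

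The miR-365 passengers were the one measure that told the mir-365 loci apart. MiR-365b-5p took 74.5% of the 5p reads in replicate 1 (82 of 110, exact 95% interval 65.4 to 82.4%) and 73.1% in replicate 2 (57 of 78, 61.8 to 82.5%), 2.93-fold and 2.71-fold above miR-365a-5p. Whether the shared 3p arm came from the loci in the same proportion cannot be told apart from these reads.

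Set beside its neighbour on chromosome 16, the miR-365 3p sequence stood 2.86-fold below miR-193b-3p in replicate 1 and 2.27-fold below it in replicate 2. Against miR-193a-3p of the chromosome 17 locus it was 1.85-fold lower in replicate 1 and 1.52-fold higher in replicate 2. Its reads may come from either locus, so neither ratio describes 1 transcript.

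Arm choice set mir-193a apart from the other hairpins. The 3p arm was over 2-fold above the 5p arm in both libraries in mir-193b, mir-365a and mir-365b, 3 of 4, while mir-193a had no such lead. Among the 137 hairpins whose arms were both in the table and together averaged 100 RPM or more, 47 were led in this way by the 3p arm (34.3%), 80 by the 5p arm (58.4%) and 10 by neither (7.30%). The mir-365 hairpins lie just under that minimum at 91.7 and 95.3 RPM. Of the 210 hairpins at 10 RPM or more, 79 were led by the 3p arm (37.6%). Among the 137, 100 shared no arm sequence with another hairpin, and 36 of these were led by the 3p arm.

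In mir-193b the 3p arm made up 96.8% of 2570 reads in replicate 1 (exact 95% interval 96.1 to 97.5%) and 97.0% of 3572 in replicate 2 (96.4 to 97.5%). That is a log2 ratio of 5p over 3p of -4.79 ± 0.06 (SD, n = 2, with 1 RPM added). Both libraries gave nearly the same share.

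In mir-193a the 3p arm made up 59.8% of 2689 reads in replicate 1 (57.9 to 61.7%) and 40.9% of 2455 in replicate 2 (38.9 to 42.9%). The 3p arm was 1.49-fold above the 5p arm in replicate 1, and the 5p arm was 1.45-fold above the 3p arm in replicate 2. The log2 ratio was -0.57 in replicate 1 and 0.52 in replicate 2, so the mean of -0.02 ± 0.77 describes neither library. The leading arm changed with the library in 3 of the 137 hairpins (2.19%), which were mir-193a, mir-361 and mir-455.

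The mir-365 hairpins were led by the shared 3p arm in each library, but by an unequal margin. With the 3p sequence counted once against both 5p arms together, it made up 88.8% of the reads in replicate 1 (86.6 to 90.7%) and 95.1% in replicate 2 (94.0 to 96.1%). Taken singly, with all 3p reads given to each hairpin, the log2 ratio of 5p over 3p was -4.51 and -5.40 in mir-365a and -3.25 and -4.41 in mir-365b. These single ratios overstate the lead of the 3p arm wherever part of its reads came from the other locus.

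**Figure D2:**
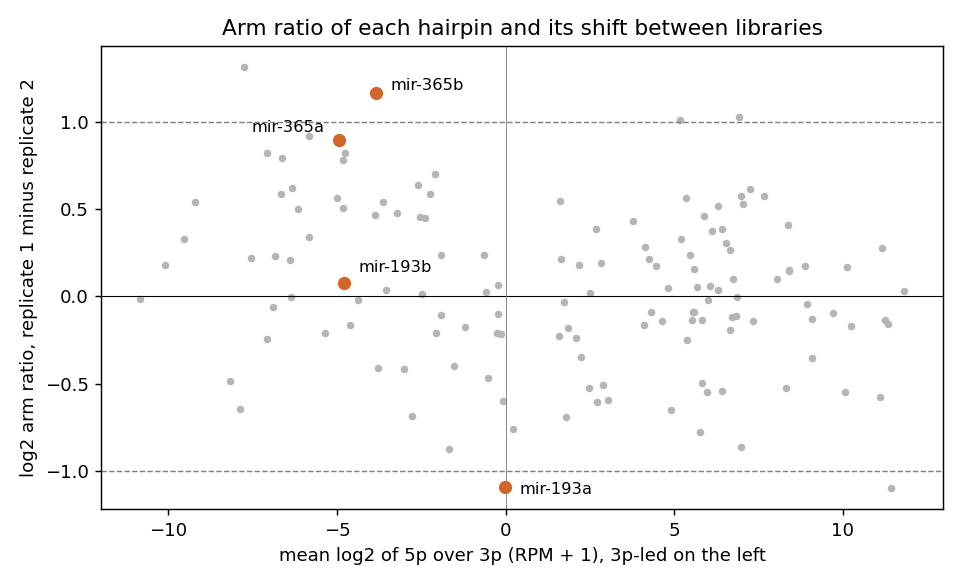
Each point is a hairpin, with the mean log2 ratio of 5p over 3p (RPM + 1) on the horizontal axis and the ratio in replicate 1 minus that in replicate 2 on the vertical axis; grey points are the 137 hairpins of 100 RPM or more, orange points the 4 described here, and dashed lines mark a 2-fold shift. Mir-193b lies near 0 on the vertical axis, mir-193a at -1.09, mir-365a at 0.90 and mir-365b at 1.16.

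The arm ratio shifted by over 2-fold between the libraries in mir-193a (-1.09) and mir-365b (1.16), and by less in mir-365a (0.90) and mir-193b (0.08). Such a shift was seen in 5 of the 137 hairpins of 100 RPM or more (3.65%), mir-193a among them, and in 10 of 210 at 10 RPM or more (4.76%). The median shift over the 137 was 0.28 in either direction. In mir-193a the 3p arm was relatively higher in replicate 1, and in the mir-365 hairpins it was relatively lower there. The shifts of the mir-365 hairpins rest on 5p arms of 21 to 82 reads.

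The base at the 5′ end and the pairing near it are features that the choice of members did not use. Argonaute is known to favour a guide that starts with A or U and whose 5′ end is loosely paired. Of 111 hairpins with a leading arm and both sequences, 97 leading arms started with A or U (87.4%), against 49 of the opposite arms (44.1%). In mir-193b the leading 3p arm starts with A and the passenger with C. In mir-193a both arms start with such a base (A in 3p, U in 5p), and so do both arms of the mir-365 hairpins (U in 3p, A in 5p).

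Pairing was read from the minimum free energy fold of each hairpin, adding 3 for each G-C pair and 2 for each A-U or G-U pair over the first 4 bases of an arm. The 3p arm had the weaker 5′ end in all 4 hairpins: 7 against 11 in mir-193a, 7 against 12 in mir-193b and 2 against 10 in both mir-365a and mir-365b. The mir-365 hairpins share the first 4 bases of both arms, so they are not separate cases. How often the 3p arm has the weaker end among all hairpins was not counted. In 66 of 102 folded hairpins with a leading arm (64.7%) the leading arm had the weaker end, in 17 the ends were equal and in 19 the leading end was the stronger. The 102 also include hairpins with a shared arm sequence, and not mir-193a or the mir-365 hairpins. Mir-193a had a weaker 3p end like its relatives and no lead of 2-fold in either library. Whether end pairing bears on the arm choice of a member was not tested.

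The difference between the libraries, on the scale of log2(RPM + 1) of replicate 1 minus replicate 2, was 1.18 for miR-193a-3p, or 2.28-fold in RPM. Of 346 names with a mean of 10 RPM or more, 6 differed by over 2-fold (1.73%), 5 of them higher in replicate 1 (1.45%) and 1 in replicate 2 (0.289%). With the libraries scaled by the median ratio of these names, 4 differed by over 2-fold, 2 in each direction, and miR-193a-3p (1.08) was among them. MiR-193a-3p was 1 of the 6 and the third in size, after miR-3607-3p (1.76) and miR-4454 (-1.26). The other members at this level differed less: 0.09 for miR-193a-5p, 0.03 for miR-193b-3p and -0.29 for the miR-365 3p sequence, against a median absolute difference of 0.25 over the 346 names.

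**Figure D3:**
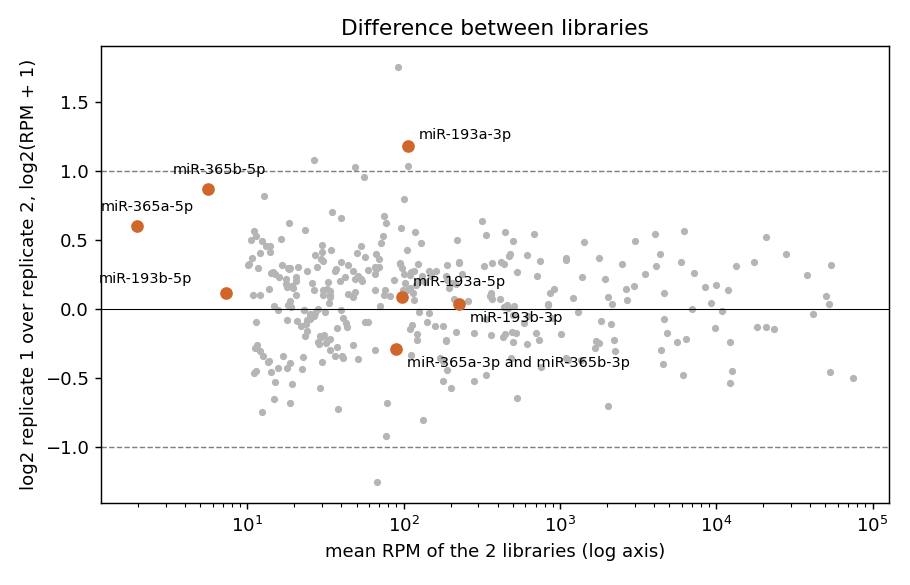
Mean RPM of the libraries (log axis) against the log2 difference of replicate 1 over replicate 2 on the log2(RPM + 1) scale, for 346 names with a mean of 10 RPM or more (grey) and the members (orange), with dashed lines at a 2-fold difference. MiR-193a-3p lies at 1.18, outside the dashed lines, while its opposite arm miR-193a-5p lies at 0.09.

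The whole table was shifted toward replicate 1 by a median of 0.10, and 205 of the 346 names were higher there. Relative to that median, miR-193a-3p was 1.08 higher in replicate 1 and the miR-365 3p sequence -0.39, while miR-193a-5p and miR-193b-3p changed sign to -0.01 and -0.07. Of the low passengers, miR-365b-5p differed by 0.87 and miR-365a-5p by 0.60, both higher in replicate 1, while miR-193b-5p differed by 0.11. The counting error alone (95%) of these 3, taken from the reads without a pseudocount, was 0.49, 0.82 and 0.42. With 1 RPM added, which shrinks the differences of low names, that of miR-365b-5p alone exceeded it. With 0.1 RPM added, miR-365b-5p (1.02) and miR-365a-5p (0.88) both exceeded it and miR-193b-5p (0.13) did not. A pseudocount of 10 RPM shrinks the difference of miR-365b-5p to 0.36 by construction, so that value cannot be set against its counting error. Without a pseudocount miR-365b-5p was 2.05-fold higher in replicate 1. Fisher's exact test (two-sided) over recovered reads of every tested name, which compares these libraries and not conditions, called 40 of 869 names (4.60%) at a Benjamini-Hochberg adjusted p of 0.05 or less and over 2-fold. It is given as background, and no member's p is used.

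The arms of a hairpin need not move together between these libraries. Over the 109 hairpins with both arms at a mean of 10 RPM or more, 63 had both arms different in the same direction (57.8%). Across hairpins the differences of the arms had a Pearson's r of 0.11 and a Spearman's rho of 0.08, a description over points that share the same 2 libraries. Some of these hairpins share an arm sequence with another, so 1 value enters repeatedly. Over the 84 without a shared arm, r was 0.05 and rho -0.02. The median gap between arms was 0.25, and mir-193a had the largest gap of the 109, with 1.18 in the 3p arm and 0.09 in the 5p arm. This gap is the same value as the shift of its arm ratio (-1.09) and no separate result. Its place depends on the minimum for both arms. Outside the 109, mir-23b (1.31), mir-186 (-1.10) and the member mir-365b (1.16) shifted more. Mir-193a was the single member hairpin in that set, since the passengers of the others stood below 10 RPM.

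Paralogues were then compared in the same way. In 12 other pairs of paralogous miRNAs, the higher was 1.11-fold to 192-fold above the lower by mean RPM, with a median of 3.98-fold, and the miR-193 3p pair stood at 2.13-fold, exceeded by 8 of the 12. The library differences of a pair lay 0.02 to 0.63 apart with a median of 0.15. Those of miR-193b-3p and miR-193a-3p lay 1.15 apart, more than in any of the 12. This gap restates the difference of miR-193a-3p (1.18), and such differences were used to choose the hairpins. The rank is therefore no separate result. The higher name of each of the 12 pairs also stood above miR-193b-3p in level, the lowest being miR-15b-5p at 484 RPM. The pair with the next widest gap was miR-301a-3p (-0.05) and miR-301b-3p (-0.68), and the closest was miR-10a-5p and miR-10b-5p. Pairs were also close where levels were far apart, as in miR-192-5p and miR-215-5p, 192-fold apart in RPM with library differences 0.09 apart.

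**Figure D4:**
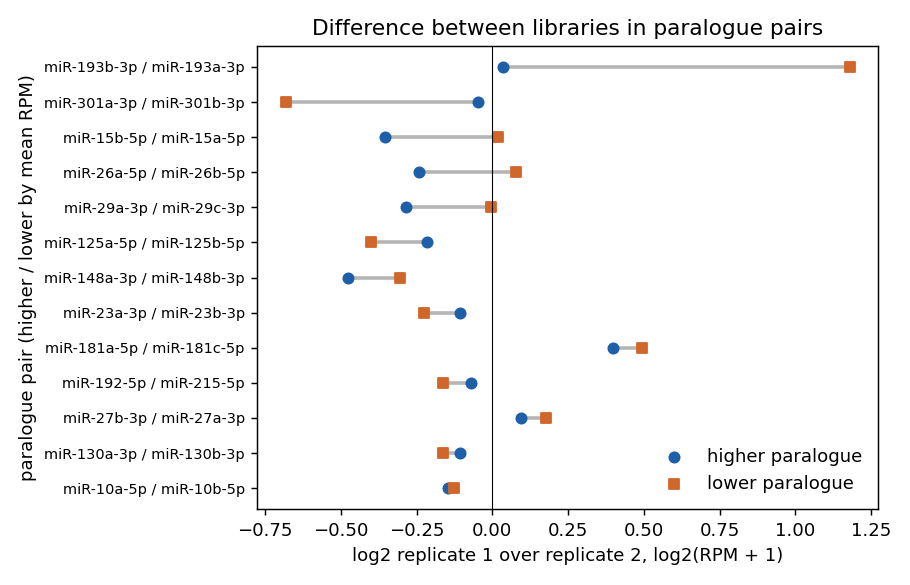
Log2 difference of replicate 1 over replicate 2 (RPM + 1) for the higher (circle) and the lower (square) paralogue of 13 pairs, sorted by the distance between them. The miR-193 pair at the top spans 1.15, and the other 12 span 0.02 to 0.63.

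The GC content of miR-193a-3p was 50.0%. It was 59.1% in miR-193b-3p, miR-193a-5p, miR-193b-5p and miR-365b-5p, 56.5% in miR-365a-5p and 31.8% in the miR-365 3p sequence. The median over 310 names at 10 RPM with a sequence was 47.8%. Whether base composition bears on the library difference of a member was not tested. Across those 310 names GC content had a Spearman's rho of 0.17 with the library difference and length a rho of -0.03, a description over names that share both libraries. All members were 22 bases long except miR-365a-5p with 23.

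The names nearest to the arm with the higher mean in each hairpin were sought by the distance over log2(RPM + 1) in the 2 libraries. MiR-455-3p was the nearest to miR-193a-3p at a distance of 0.10, with 144 and 69.4 RPM, followed by miR-877-5p (0.27) and miR-1285-3p (0.43). For miR-193b-3p they were miR-421 (0.14), miR-24-2-5p (0.17) and miR-28-5p (0.17). For the miR-365 3p sequence the nearest was another member, miR-193a-5p (0.32), ahead of miR-598-3p (0.32) and miR-3180-5p (0.36). With 2 libraries such a distance says little beyond a like level in each.

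The members stood among other miRNAs known to act on the same genes. Of 9 listed repressors of MCL1, a survival factor, 8 were in the table and 7 stood at 10 RPM or more in both libraries, with a median of 1389 RPM. They were led by miR-26a-5p (12190 ± 1434 RPM) and miR-125b-5p (4551 ± 887 RPM), and 5 were above miR-193b-3p. Of 10 repressors of CCND1, the cyclin of early cell cycle entry, all were in the table and 9 at that level, with a median of 943 RPM, let-7a-5p (41893 ± 717 RPM) and miR-16-5p (12532 ± 2735 RPM) leading and 7 above miR-193b-3p.

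Of 11 miRNAs known from brown fat, 8 stood at that level, with a median of 366 RPM, led by miR-27b-3p (50503 ± 2374 RPM) and miR-182-5p (7040 ± 3.20 RPM). Between the libraries, 0 names of the MCL1 and CCND1 lists and 1 of the brown fat list, miR-455-3p, differed by over 2-fold. MiR-193b-3p was thus lower than several other known repressors of MCL1 and of CCND1, and miR-193a-3p was lower than 8 of the 10 listed for CCND1.

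Matches to the member seeds were then sought in messenger RNAs, in the longest 3′ UTR per gene in the GENCODE 29 basic set (19115 genes with a median of 1083 bases), on the sense strand. The match to bases 2 to 8 of miR-193a-3p and miR-193b-3p, GGCCAGT, occurred in 1952 genes (10.2%). That of the miR-365 3p sequence, GGGCATT, occurred in 1729 (9.05%) and that of miR-193a-5p, AAGACCC, in 1804 (9.44%). The known targets MCL1, CCND1 and PLAU each held GGCCAGT once, in UTRs of 2824, 3192 and 932 bases. The sites are printed in mRNA sense with the match in capitals, to show what the arms described above pair with.
MCL1, minus strand, chr1:150577031-150577059: aacaggaaagtGGCCAGTagccaggcaag
CCND1, plus strand, chr11:69652719-69652747: gatgttcataaGGCCAGTatgatttataa
PLAU, plus strand, chr10:73917331-73917359: gtccctttcttGGCCAGTtatcccttcct

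In MCL1 and CCND1 an A follows the match, opposite base 1 of the miRNA, a context known to strengthen pairing sites, and in PLAU a T follows it. PLAU also held 1 match to the miR-365 3p seed. In the longest annotated 3′ UTR of BRAF, the gene the study is about (7167 bases), GGCCAGT was found 0 times, GGGCATT 2 times and AAGACCC 1 time.
BRAF, miR-365 3p seed, minus strand, chr7:140723400-140723428: agggcatactgGGGCATTttagaagataa
BRAF, miR-365 3p seed, minus strand, chr7:140722929-140722957: tttgtcctaaaGGGCATTatacatttaag
BRAF, miR-193a-5p seed, minus strand, chr7:140724731-140724759: agaaattaaacAAGACCCagaataaatca

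The UTRs of BRAF, MCL1 and CCND1 are longer than the median of 1083 bases and that of PLAU is shorter, and no match count was adjusted for length. MCL1, CCND1 and PLAU were picked as known targets, so their matches cannot be compared with the share over all genes. The data hold no messenger RNA levels, so whether any of these matches acts in A375 cells was not tested.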

How the data were processed

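The authors deposited RPM, 1 value per hairpin, mature miRNA and library, with decimal commas. CASAVA 1.8 and cutadapt 1.2.1 are named in the submitters' processing notes. For the aligner, the miRNA annotation, the genome build and multiply matching reads, the answer is not given in the sources used here. The 2 value columns, each summing to 1000000, were matched to samples by their descriptions. All values were whole multiples of the smallest in their column (100% within 0.01 reads), so read assignments were recovered. A mature name under several hairpins took its highest value in each library. The labels do not say that the replicates were separate cultures, so their spread may be technical.

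Logarithms used 1 RPM as pseudocount, which understates differences of low names. SDs are over 2 libraries. Intervals are exact Poisson or Clopper-Pearson at 95%. They cover counting error only, because PCR copies of 1 molecule count as several reads. Fisher's exact test covered names with 10 or more reads in sum. In a simulated library pair with 200 of 868 names changed 3-fold, 200 were recovered and 2 of 668 others called. Between the real libraries, Fisher's exact test put 300 of 869 names at an adjusted p of 0.05 or less before the fold limit. The simulated pair thus says nothing about the spread between these replicates. Sequences came from RefSeq (GRCh38.p14), which held 1317 of the 1497 names, folds from ViennaRNA 2.7.2 and annotation from GENCODE 29. Python 3.11.15 and scipy 1.17.1 were used.

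Named miRNAs were the members, the 3 names nearest to the higher arm of each hairpin, the 2 highest of each list and the paralogue pairs. MiR-3607-3p, miR-4454, mir-23b, mir-186, mir-361, mir-455, mir-4725 and the 4 genes searched for seed matches were chosen after results were seen. Members and lists were chosen with earlier results of these data known. A further list of repressors and its gene are not reported here. The listed miR-203a was matched as miR-203a-3p. Alternatives were other scalings, pseudocounts, minima and fold limits, summed copies and leaving out each replicate.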

Additional observations from a re-analysis of the deposited data

How the results depend on the processing

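Of 136 alternative values for 32 results, 106 stayed within the spread or counting error (counts within 1.5 times), 30 moved and 0 of the called ones changed direction. Leaving out 1 replicate moves a mean of 2 libraries by less than their SD. Levels and ratios without 1 replicate thus count among the 106 by construction and say nothing about stability. Among them is miR-193a-3p, at 65.1 RPM without replicate 1 and 149 RPM without replicate 2. The 6 names over 2-fold apart became 3 with a pseudocount of 10 RPM, 25 and 1 at limits of 1.5-fold and 3-fold, 12 and 2 at minima of 1 and 100 RPM and 13 without a minimum. The 40 calls of Fisher's exact test became 81 and 16 at limits of 1.5-fold and 3-fold. The 47 hairpins led by the 3p arm became 79 and 20 at minima of 10 and 1000 RPM. With pseudocounts of 0.1 and 10 RPM, the log2 ratio of 5p over 3p was -4.95 and -3.78 in mir-193b, and with 10 RPM -3.05 in mir-365a and -2.68 in mir-365b. That of mir-365a was -3.46 with both 5p arms summed over the 3p sequence counted once, an alternative chosen after seeing the data. The log2 ratio of miR-193b-5p over miR-193a-5p was -3.72 and -2.63 with those pseudocounts, and that of miR-365b-5p over miR-365a-5p 1.45 and 0.38. A larger pseudocount shrinks ratios of low arms by construction. With the copies of the miR-365 3p sequence summed, which counts each read again, its log2 ratio to miR-193b-3p was -0.35, to miR-193a-5p 0.87 and to miR-193a-3p 0.85. Without replicate 1 or 2, the log2 ratio of miR-193b-3p over miR-193a-3p was 1.77 or 0.63 and the arm ratio of mir-193a 0.52 or -0.57. The difference of miR-193a-3p between libraries ranged from 1.08 to 1.19 over its alternatives. With each name counted once in the total, mean levels were 292 RPM for miR-193b-3p, 125 RPM for miR-193a-5p, 115 RPM for the miR-365 3p sequence and 9.32 RPM for miR-193b-5p. With its copies summed the miR-365 3p sequence stood at 179 RPM. The difference between libraries was -0.07 for miR-193b-3p with median ratio scaling and 0.36 for miR-365b-5p with a pseudocount of 10 RPM. Arms under 10 RPM rest on 21 to 107 reads, which limits their ratios. No paired analysis was possible because both libraries belong to 1 group.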

Other observations

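The seed of the miR-365 passengers had its exact complement inside the miR-193 guides. The 7 letters AAGUCCC, which pair with bases 2 to 8 of miR-365a-5p and miR-365b-5p, occurred in 2 of the 1317 mature sequences of the table (0.152%), and these were miR-193a-3p and miR-193b-3p, from base 13 to 19 in each. The complement is in capitals.
miR-193a-3p: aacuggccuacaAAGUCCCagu
miR-193b-3p: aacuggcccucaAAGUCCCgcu

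The complements of the seeds of miR-193a-3p, miR-193a-5p and miR-193b-5p occurred in 0 of the 1317, and that of the miR-365 3p sequence in 2, miR-1323 and miR-324-5p, neither of them a member. The match joins arms of hairpins that lie in pairs on chromosomes 16 and 17. In these libraries the miR-365 passengers stood at 1.36 to 7.58 RPM and the miR-193 3p arms at 65.1 to 230.0 RPM. The match is a description of letters, and pairing between these RNAs was not tested.

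The hairpins whose leading arm changed with the library were mir-193a, mir-361 and mir-455. In mir-455, miR-455-3p had 144 RPM in replicate 1 and 69.4 RPM in replicate 2, beside 128 and 106 RPM for the 5p arm. In mir-361 the 3p arm had 206 and 185 RPM beside 159 and 217 RPM for the 5p arm. In all 3 the 3p arm led in replicate 1 and the 5p arm in replicate 2. They were seen in the same 2 libraries and were picked for the change, so this is a description.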
